A study of Mus musculus with 2 samples.

Results

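Highly proliferating tumor spots were taken from 2 spatial transcriptomic libraries of orthotopic pancreatic tumors, 1 labelled KPC-shZEB1 and 1 labelled KPC-shV. A spot is a barcoded area of a tissue section, in which neighbouring cells of more than 1 type can be read together. Spots were eligible when they held at least 20000 UMIs (unique molecular identifiers, each 1 captured probe molecule) and when fewer than 2% of these came from the acinar genes Cpa1, Ctrb1, Prss2, Pnlip and Cela2a. Eligible spots were ranked within each library on their summed level of Mki67, Top2a and Cdk1 in CPM (UMIs per 1000000 UMIs of the spot). The top 10% were called high spots and the lowest 10% low spots. Of 2220 spots labelled KPC-shZEB1, 1325 were eligible and 132 were high. Of 3552 spots labelled KPC-shV, 2609 were eligible and 260 were high. The high spots therefore numbered 392 of 5772 in all, and as many low spots were set beside them. Because measured values of the same spots chose both sets, every ratio of high over low spots given here is a description, without a test.

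KPC cells are a pancreatic cancer line that the study's methods derive from a genetically engineered mouse carrying Pdx-1-Cre, which acts in the pancreas. The cells stably carried, by lentivirus, a hairpin against Zeb1 (KPC-shZEB1) or a control vector (KPC-shV), and they grew as allografts after injection into the mouse pancreas. Gemcitabine, which the study's text gives for tumors of these groups, is not named in the labels, and the promoter of the hairpin is not given. The study's methods name C57BL/6J, BALB/c and NSG mice of 4 to 6 weeks for orthotopic tumors, and its text places the tumors taken for sequencing in immunocompetent hosts, without naming the strain. The study's methods give 2 tumors per group for this sequencing, without saying which a library covers. Each group is 1 library, so library and group cannot be told apart. Intervals below are at the 95% level, and those of levels and ratios cover counting error only, since spots of 1 section are not replicates. Exact binomial intervals of shares of spots take spots as independent draws, which spots of 1 section are not. They describe these spots and cover no spread between tumors.

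Zeb1 is the gene that the hairpin targets (ENSMUSG00000024238, chromosome 18 of GRCm38, 5591860 to 5775467), so its level was read before the others. Eligible spots had 15.2 CPM (labelled KPC-shZEB1) and 12.6 CPM (labelled KPC-shV), which gave a log2 ratio of 0.27 (95% interval 0.17 to 0.37). In high spots the levels were 15.2 and 13.3 CPM, a log2 ratio of 0.19 (-0.14 to 0.51), and in low spots 19.7 and 10.4 CPM, a log2 ratio of 0.92 (0.54 to 1.30). The level thus went against the labels in eligible and low spots, and no difference was detectable in high spots. Libraries are therefore named by their labels throughout. Zeb1 is also made by stromal cells of the host, and their share of each level is unknown.

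Cells that divide pass through ordered phases. In G1 the MCM helicase is loaded at replication origins, and in S phase origins fire and polymerases, nucleotide enzymes and histones serve the copying of DNA, while in G2 and mitosis cyclin-dependent kinase 1 drives chromosome condensation, the spindle and separation of the chromatids. Genes of the earlier steps are known targets of E2F factors, and many genes of the later steps are targets of the DREAM and MuvB complexes, so that levels of both groups mark cycling cells in tumors.

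The rule genes belong to the later steps, and their values chose the spots. Mki67 encodes the Ki-67 antigen of the chromosome surface (ENSMUSG00000031004, chromosome 7 of GRCm38, 135689784 to 135716361). Among high spots it ranged from 373 to 1091 CPM with a median of 661 CPM (labelled KPC-shZEB1) and from 281 to 1045 CPM with a median of 507 CPM (labelled KPC-shV). Among low spots the medians were 88.3 and 74.6 CPM, with 6 and 20 spots at 0. High and low spots did not overlap in Mki67, as the highest low spots reached 241 and 228 CPM. Top2a, which encodes the topoisomerase that untangles chromosomes (ENSMUSG00000020914, chromosome 11 of GRCm38, 98992943 to 99024189), ranged from 0 to 462 CPM with a median of 219 CPM and from 0 to 508 CPM with a median of 251 CPM in the high spots of the libraries labelled KPC-shZEB1 and KPC-shV, respectively. Its low spot medians were 31.8 and 37.7 CPM, and the sets overlapped, since 2 high spots of each library were at 0. Cdk1, the mitotic kinase (ENSMUSG00000019942, chromosome 10 of GRCm38, 69335146 to 69352938), had medians of 403 and 469 CPM in high spots against 65.4 and 98.8 CPM in low spots. Its high spots began at 205 and 199 CPM, below the highest low spots at 210.4 and 283 CPM.

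The ranking had no gap at its limits. In the library labelled KPC-shZEB1 the last high spot summed 1172 CPM over the 3 genes and the next spot 1166 CPM, while the last low spot summed 304 CPM and the next 305 CPM. In the library labelled KPC-shV the high limit lay between 1109 and 1108 CPM and the low limit between 325 and 326 CPM. Medians over eligible spots were 722 and 716 CPM, so both libraries were ranked over nearly the same range. The sets are the ends of a continuous range and not a separate class of spots.

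**Figure D1:**
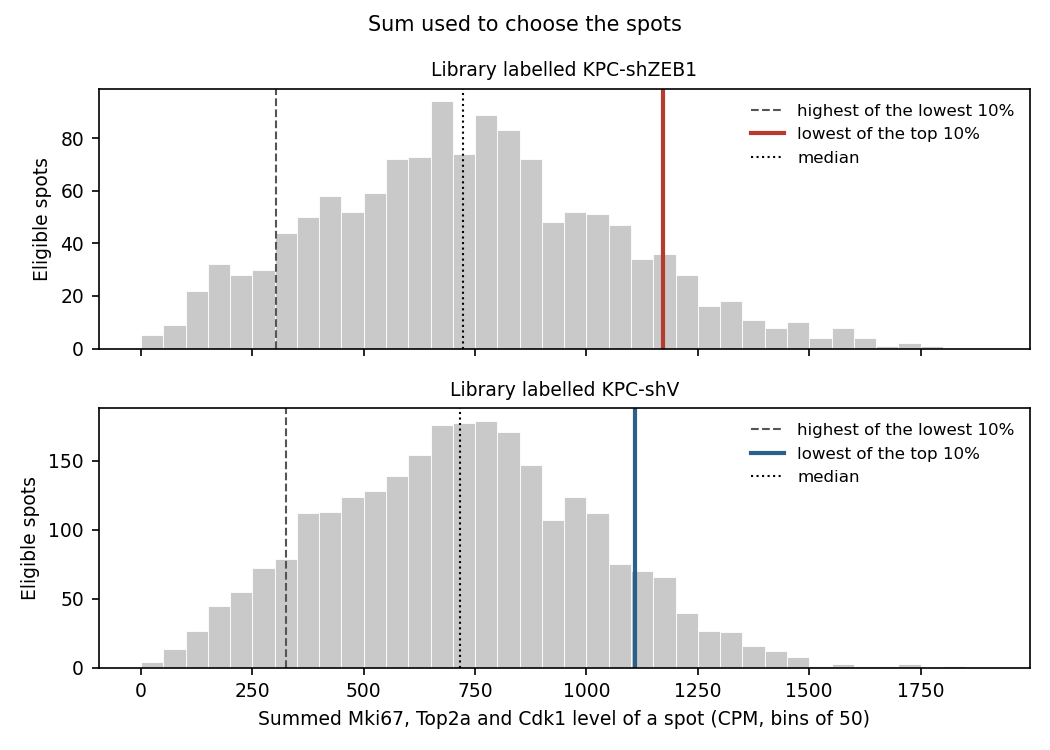
Number of eligible spots by their summed Mki67, Top2a and Cdk1 level (CPM, bins of 50), with the limits of the high and low spots as lines, for each library. Both distributions are continuous, with medians of 722 CPM (labelled KPC-shZEB1) and 716 CPM (labelled KPC-shV).

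Depth differed between the sets. High spots labelled KPC-shZEB1 had a median of 57186 UMIs against 47002 in low spots, and those labelled KPC-shV 74720 against 38557. In the latter library high spots were therefore deeper than eligible spots in general, with a median of 62288 UMIs. With every spot cut down at random to 20000 UMIs, 6071 and 6025 genes were detected per high and low spot labelled KPC-shZEB1, and 6133 and 6019 per spot labelled KPC-shV, so levels were compared per UMI. Pooled over spots, the high sets held 7894059 and 19211096 UMIs and the low sets 6752151 and 10553426. The 2 libraries shared 1718 barcodes among all spots and 4 among high spots.

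The label of these spots was checked against markers. Epithelial genes were abundant in high spots, with Epcam, an epithelial adhesion molecule, at 938 CPM (labelled KPC-shZEB1) and 1160.4 CPM (labelled KPC-shV) and Krt8, a keratin of simple epithelia, at 1058 and 1056 CPM. Single high spots varied, since Epcam ranged from 13.4 to 3551 CPM with a median of 872 CPM and from 0 to 4683 CPM with a median of 1171 CPM, respectively. After thinning, 127 of 132 high spots labelled KPC-shZEB1 (96.2%, exact binomial interval 91.4% to 98.8%) had a UMI of Epcam, as did 254 of 260 high spots labelled KPC-shV (97.7%). The numbers in low spots were 110 of 132 (83.3%) and 252 of 260 (96.9%), so detection of Epcam was not particular to high spots. Every other cell cycle list also stood higher in high spots, as given next. The tumor epithelium list was lower in high spots than over eligible spots, at 5458 against 6640.1 CPM (labelled KPC-shZEB1) and 7324 against 7547 CPM (labelled KPC-shV), and 0 of 132 and 9 of 260 high spots were in the top 10% for it. The fibroblast list summed to 6327 and 3259 CPM in the same high spots. High spots are therefore mixed regions that hold epithelial RNA and high levels of cell cycle genes, not the regions richest in tumor epithelium.

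Between high and low spots labelled KPC-shZEB1, 10498 genes had at least 10 CPM in the higher set. Of these, 1106 (10.5%) were at least 2-fold higher in high spots and 1314 (12.5%) at least 2-fold lower. In the library labelled KPC-shV, 9954 genes could be compared, 407 (4.09%) were higher and 485 (4.87%) lower. Among the 9660 genes compared in both, 305 (3.16%) were higher in both libraries and 212 (2.19%) lower in both. Within these 9660 genes, 1069 were higher labelled KPC-shZEB1 and 387 labelled KPC-shV, of which the shared genes made up 28.5% and 78.8%, and 787 and 421 were lower, of which they made up 26.9% and 50.4%. Genes that went opposite ways numbered 12 (0.124%, higher labelled KPC-shZEB1 and lower labelled KPC-shV) and 8 (0.0828%, the reverse). The median log2 ratio over the genes compared was 0.15 and 0.046, so ratios in the library labelled KPC-shZEB1 stand on a small common shift. Scaling by the median of ratios there gave 815 higher and 1507 lower genes. With all other eligible spots in place of the low spots, 52 and 42 genes were higher, and 217 and 115 lower.

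**Figure D2:**
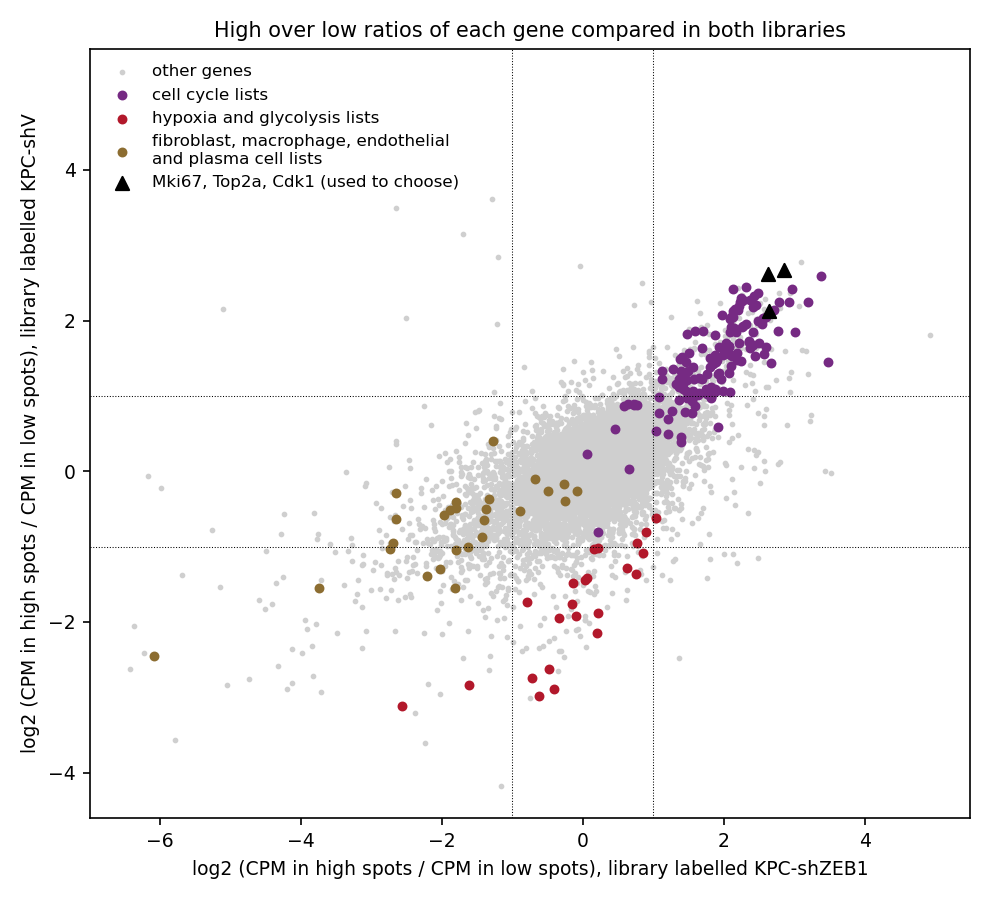
Log2 ratio of high over low spots for each gene compared in both libraries, labelled KPC-shZEB1 on the x axis and labelled KPC-shV on the y axis, with genes of the cell cycle lists in purple, those of the hypoxia and glycolysis lists in red, those of 4 stromal and immune cell lists in brown, and lines at the 2-fold limit. Of 139 cell cycle genes, 112 lie beyond 2-fold higher on both axes and none beyond 2-fold lower on either. Some of the 139 passed the 10 CPM filter through the high spots alone, which sets their direction.

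The cell cycle lists, without the rule genes, held 145 measured genes of 155, of which 139 were compared. In the library labelled KPC-shZEB1, 130 of them were at least 2-fold higher in high spots, with a median log2 ratio of 1.92, and in the library labelled KPC-shV 112, with a median of 1.48. The number lower by 2-fold was 0 in both, and 112 were higher in both. These counts stand against the 10.5%, 4.09% and 3.16% over all genes. A gene needed 10 CPM in the higher set only, and 109 of the 139 reached it in the low spots of either library. The others were compared through the high spots alone, so the filter set their direction, here and in the counts by list below. Ranking spots within 10 classes of depth gave 127 and 83 higher genes, and comparing high spots with all other eligible spots gave 4 and 2. In the latter comparison the summed G2/M regulators fell from log2 ratios of 2.22 and 1.86 to 0.76 and 0.73.

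Replication licensing is the loading and firing of origins in G1 and S phase. Of its 22 genes, 21 were at least 2-fold higher in high spots labelled KPC-shZEB1 and 11 in those labelled KPC-shV. Mcm5, a subunit of the helicase, ranged from 33.2 to 372 CPM with a median of 158 CPM in high spots labelled KPC-shZEB1 and from 23.5 to 307 CPM with a median of 138 CPM in those labelled KPC-shV. In low spots the medians were 44.5 and 48 CPM, with overlap of the sets. Its log2 ratios were 1.57 (95% interval 1.40 to 1.74) and 1.38 (1.25 to 1.51). The other MCM genes of the helicase (Mcm2, Mcm3, Mcm4, Mcm6 and Mcm7) had log2 ratios from 1.39 for Mcm4 to 1.65 for Mcm7 labelled KPC-shZEB1, and from 0.45 for Mcm4 to 1.03 for Mcm7 labelled KPC-shV. Mcm10, which activates the loaded helicase, had log2 ratios of 2.67 and 1.43. E2f1, a transcription factor of S phase entry, was at 34.1 against 20.6 CPM and at 37.8 against 20.6 CPM, below 2-fold in both libraries.

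Dbf4 (ENSMUSG00000002297, chromosome 5 of GRCm38, 8396973 to 8422716), the activating subunit of the kinase that fires origins, was the most abundant licensing gene by UMIs in high spots. It ranged from 0 to 1387 CPM with a median of 508 CPM labelled KPC-shZEB1 and from 45.9 to 5091 CPM with a median of 749 CPM labelled KPC-shV. Low spot medians were 32.3 and 234 CPM, and the log2 ratios 3.48 (3.32 to 3.65) and 1.45 (1.40 to 1.49). Low spots reached 233 and 2217 CPM, so high and low spots overlapped in both libraries. Cdc7, the catalytic subunit of the same kinase, was at 18.6 and 18.2 CPM in high spots, with log2 ratios of 1.48 and 1.21.

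DNA synthesis genes behaved likewise, with 21 of 24 genes at least 2-fold higher labelled KPC-shZEB1 and 15 labelled KPC-shV. Dut, which removes dUTP from the nucleotide pool, stood at 387 against 107 CPM and at 334 against 163 CPM, log2 ratios of 1.86 (1.74 to 1.97) and 1.04 (0.96 to 1.12). Pole, the catalytic subunit of the leading strand polymerase, had log2 ratios of 2.12 and 1.52, and Lig1, which joins Okazaki fragments, 1.92 and 1.28. Uhrf1, which helps copy DNA methylation, had 1.81 and 1.5. The exceptions in both libraries were Rfc2 and Rfc5, subunits of the clamp loader, and Rpa2, which binds single strands, at log2 ratios of 0.58 to 0.77 and of 0.87 to 0.89. Pcna, the sliding clamp and a common proliferation marker, was read at 2.41 and 1.93 CPM in high spots and was not compared. After thinning it was detected in 1 of 132 high spots labelled KPC-shZEB1 (0.758%) and in 11 of 260 labelled KPC-shV (4.23%). Of 8 genes not expected in these tissues, the olfactory gene Omp was read at 4.56 and 7.6 CPM in the same spots, above Pcna, and the other 7 lay below it. The level of Pcna was therefore close to background and was not read further.

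Replication-dependent histone genes, which supply new nucleosomes in S phase, were at least 2-fold higher for all 8 genes compared in both libraries. Hist1h3b ranged from 329 to 2724 CPM with a median of 1193 CPM labelled KPC-shZEB1 and from 319 to 2638 CPM with a median of 1271 CPM labelled KPC-shV, against low spot medians of 228 and 217 CPM. Its log2 ratios were 2.37 (2.30 to 2.45) and 2.27 (2.21 to 2.32). Hist1h1a, a linker histone, was at 399 against 79.7 CPM and at 245 against 62.9 CPM. Single histone genes are uncertain, because near-identical copies can share probes. Hist1h2ag and Hist1h2bj, outside the list, were named by the size of their ratio, at log2 2.95 and 2.36 for the first and 2.78 and 2.36 for the second.

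The G2/M regulators hold the cyclins, kinases and phosphatases of mitotic entry, and 16 of 16 labelled KPC-shZEB1 and 15 of 16 labelled KPC-shV were at least 2-fold higher. Ccna2, cyclin A2, ranged from 146 to 715 CPM with a median of 419 CPM labelled KPC-shZEB1 and from 122 to 855 CPM with a median of 352 CPM labelled KPC-shV. Low spot medians were 55 and 70.1 CPM, with overlap at 203 and 349 CPM. The log2 ratios were 2.79 (2.64 to 2.94) and 2.25 (2.14 to 2.36). Ccnb2, cyclin B2 (ENSMUSG00000032218, chromosome 9 of GRCm38, 70407692 to 70421547), had medians of 127 and 169 CPM in high spots and 21.6 and 26.2 CPM in low spots. Without thinning it was at 0 in 2 of 132 and 0 of 260 high spots, against 43 and 89 low spots. After thinning it was detected in 116 of 132 and 245 of 260 high spots, against 55 and 121 low spots. Cdc25c, the phosphatase that activates Cdk1, led the genes named by the size of the smaller of their ratios in the libraries, at 24.6 against 2.37 CPM and 25.8 against 4.26 CPM, log2 3.37 (2.64 to 4.21) and 2.60 (2.15 to 3.07). Aurka, a spindle pole kinase, had log2 ratios of 2.93 and 2.25, Plk1, a kinase of mitotic entry and exit, 2.14 and 2.42, and Foxm1, a transcription factor of G2/M genes, 2.13 and 2.05. The exception labelled KPC-shV was Cks2, a Cdk1 binding subunit, at 0.38.

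Kinetochore and checkpoint genes, which attach chromosomes to the spindle and delay anaphase, were at least 2-fold higher for 17 of 17 genes in both libraries. Cenpf, a kinetochore protein of G2 and mitosis (ENSMUSG00000026605, chromosome 1 of GRCm38, 189640606 to 189688086), ranged from 0 to 307 CPM with a median of 108 CPM and from 0 to 285 CPM with a median of 105 CPM. In low spots the medians were 0 and 14.8 CPM, with 71 of 132 and 125 of 260 spots at 0 without thinning. After thinning Cenpf was detected in 115 of 132 and 213 of 260 high spots, against 26 and 76 low spots. Bub1, a checkpoint kinase, had log2 ratios of 3.01 (2.67 to 3.36) and 1.85 (1.68 to 2.03). Nuf2 and Knl1, of the microtubule binding site, had 2.28 and 2.27, and 2.25 and 2.30.

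For the spindle and cytokinesis the count was 20 of 20 in both libraries. Aspm, of the spindle pole, had medians of 100.3 and 119 CPM in high spots, and log2 ratios of 3.19 (2.87 to 3.53) and 2.25 (2.07 to 2.43). Kif11, the motor that pushes spindle poles apart, was at 108 and 108 CPM in high spots against 20.1 and 21.5 CPM in low spots. Chromosome condensation and separation genes were higher for 10 of 11 in both libraries, with Ncapg, of the condensin complex, at log2 2.49 and 2.00. The exception was Pttg1, which encodes securin, the inhibitor of separase, at 37.5 against 36 CPM and 40 against 34.2 CPM. Of the 4 genes of the mitotic exit ubiquitin ligase, 3 were higher in both libraries, and Fzr1, its activator in G1, had log2 ratios of 0.66 and 0.03. Homologous recombination and S phase checkpoint genes were higher for 14 and 13 of 17, with Brca1, which serves recombination repair, at log2 1.71 and 1.86. Wee1, which holds Cdk1 inactive, was among those below 2-fold, at 0.21 and -0.81.

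Promoter sequence was read for genes that moved together here. Windows of 300 bases (250 before and 50 from the annotated start, RefSeq, GRCm38.p6) were searched on both strands for TTTGAA, the cell cycle homology region (CHR) bound by MuvB complexes, for CCAAT, the NF-Y box, for TTCGCGC or TTGGCGC, forms of the E2F site, and for ACGTG, the core of the hypoxia response element. TTTGAA was in 17.9% of 32851 windows of all genes, in 11.7% of 9847 windows of genes compared in both libraries and in 32.6% of 267 windows of genes higher in both. For the kinetochore, spindle and other mitosis lists it was in 38 of 63 windows (60.3%), and for the licensing and DNA synthesis lists in 8 of 45 (17.8%). E2F letters were in 7.04% of windows of compared genes, in 18.4% of those higher in both, in 12.7% of mitosis windows and in 31.1% of licensing and DNA synthesis windows. CCAAT and TTTGAA together were in 4.66% of windows of compared genes and 49.2% of mitosis windows. The genes lower in both libraries had TTTGAA in 12.7% of 181 windows. ACGTG was in 26% of windows of compared genes, in 26.2% of those higher in both, in 19.3% of those lower in both and in 53.3% of 15 windows of the hypoxia list. These lists were chosen by function and the shares are descriptions. A match is a run of letters and not a shown binding site.

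The windows below show this arrangement for the mitotic genes Ccnb2, Cdk1, Top2a and Cenpf, and the absence of TTTGAA in the S phase gene Mcm5. Each gives 160 bases before the start and 20 from it, 5′ to 3′ on the gene's strand, with matches to the CHR, the NF-Y box and the E2F forms in capitals and the hypoxia core left unmarked. Both strands were read, so a match can stand as its reverse complement.
Ccnb2 (chr9:70421535-70421714, minus strand): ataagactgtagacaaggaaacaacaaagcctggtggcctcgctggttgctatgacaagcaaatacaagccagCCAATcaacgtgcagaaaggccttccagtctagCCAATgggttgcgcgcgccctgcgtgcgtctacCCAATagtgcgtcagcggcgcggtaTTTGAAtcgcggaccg
Cdk1 (chr10:69352893-69353072, minus strand): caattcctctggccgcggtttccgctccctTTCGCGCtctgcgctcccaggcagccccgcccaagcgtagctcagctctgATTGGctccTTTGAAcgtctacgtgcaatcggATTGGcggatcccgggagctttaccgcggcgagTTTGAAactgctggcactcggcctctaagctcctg
Top2a (chr11:99024170-99024349, minus strand): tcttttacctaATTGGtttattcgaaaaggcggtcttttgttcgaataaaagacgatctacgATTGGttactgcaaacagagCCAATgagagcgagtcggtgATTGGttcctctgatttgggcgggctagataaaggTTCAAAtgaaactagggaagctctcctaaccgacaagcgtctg
Cenpf (chr1:189688067-189688246, minus strand): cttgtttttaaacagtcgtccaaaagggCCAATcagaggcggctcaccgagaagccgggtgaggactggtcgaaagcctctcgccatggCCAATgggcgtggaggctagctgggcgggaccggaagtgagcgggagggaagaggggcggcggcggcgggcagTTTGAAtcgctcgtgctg
Mcm5 (chr8:75109349-75109528, plus strand): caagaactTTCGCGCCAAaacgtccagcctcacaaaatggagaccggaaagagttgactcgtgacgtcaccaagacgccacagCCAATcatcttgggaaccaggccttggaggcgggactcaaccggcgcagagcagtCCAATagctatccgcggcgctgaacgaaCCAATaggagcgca
In Ccnb2 and Cenpf the TTTGAA lies just after the annotated start, downstream of the CCAAT boxes. In Cdk1 the nearer of 2 matches lies just before the start, and in Top2a the match is read on the opposite strand. Cdk1 also holds an E2F form further upstream, and the 2 E2F matches of Mcm5 overlap on opposite strands.

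The balance of phases also shifted along the ranking. Summed UMIs of the G2/M, kinetochore and spindle lists were 0.942 of those of the licensing and DNA synthesis lists in high spots labelled KPC-shZEB1, against 0.611 in low spots. The values labelled KPC-shV were 0.931 and 0.539. Mitotic genes exceeded S phase genes in 50 of 132 and 134 of 260 high spots, against 6 of 132 and 7 of 260 low spots. The rule genes rise late in the cycle, so a shift towards mitotic genes is in part built into the ranking. Ranking on the S phase lists instead shared 67 of 132 and 93 of 260 high spots with the rule.

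High spots were not the same as the top 10% by each list. Of 132 high spots labelled KPC-shZEB1, 75 (56.8%, exact binomial interval 47.9% to 65.4%) were also in the top 10% for G2/M regulators, 76 for histones, 66 for DNA synthesis and 58 for licensing. Labelled KPC-shV the numbers were 153 (58.8%, 52.6% to 64.9%), 118, 111 and 78 of 260. None of the 132 low spots labelled KPC-shZEB1 was in these top 10% sets, and labelled KPC-shV up to 3 of 260 were. Over 10 equal steps of the ranking, each of these 4 lists was higher at every step than at the one before.

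**Figure D3:**
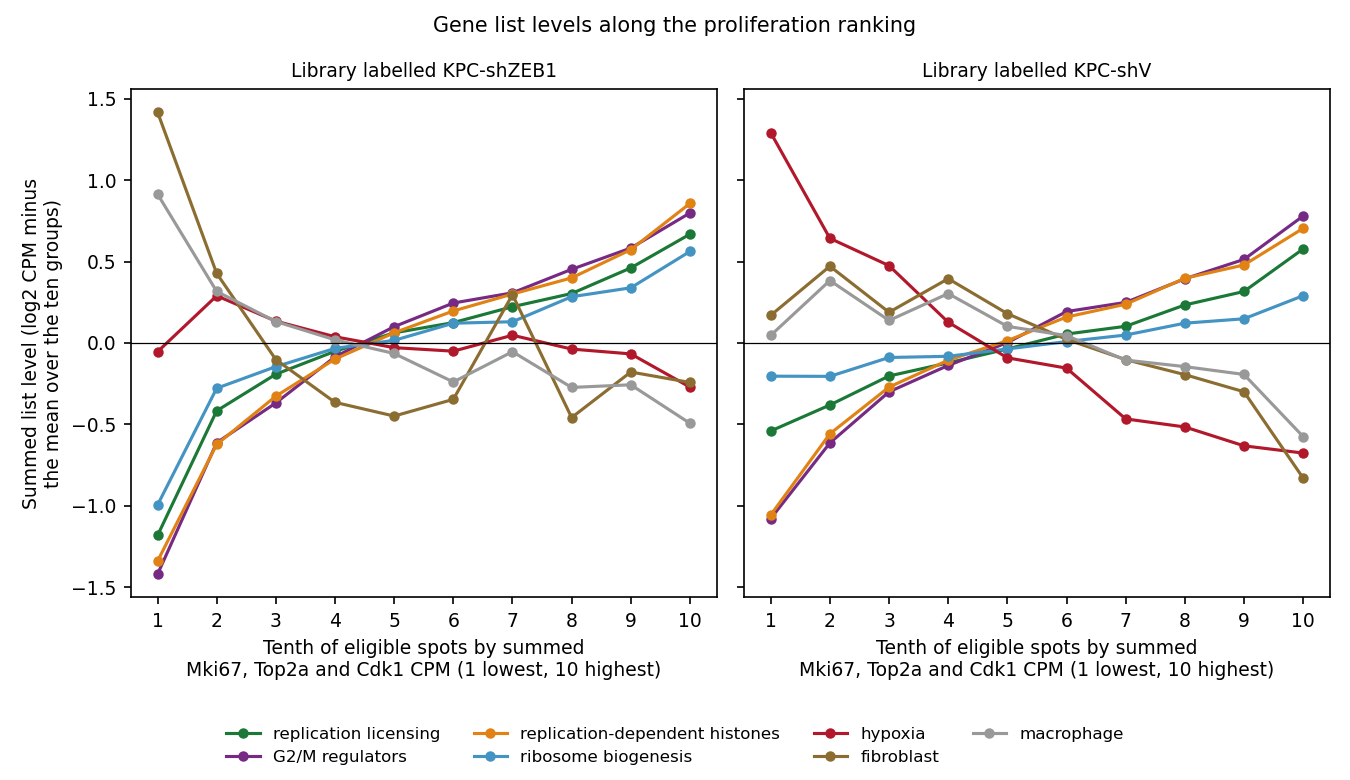
Summed level of 7 gene lists in 10 equal classes of the eligible spots, ranked by summed Mki67, Top2a and Cdk1 CPM, as log2 CPM minus the list's mean over the 10 classes, for each library. Cell cycle and ribosome biogenesis lists climb with the ranking in both libraries, while hypoxia genes drop mainly in the library labelled KPC-shV and fibroblast and macrophage genes peak in the lowest class of the library labelled KPC-shZEB1.

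Growth drivers lie upstream of the cycle. Cdk6 (ENSMUSG00000040274, chromosome 5 of GRCm38, 3341485 to 3531008), a kinase that pairs with D cyclins in G1, ranged from 140.4 to 3667 CPM with a median of 1244 CPM in high spots labelled KPC-shZEB1 and from 0 to 1429 CPM with a median of 209 CPM in those labelled KPC-shV. In low spots the medians were 94.7 and 161 CPM, and the log2 ratios were 3.22 (3.13 to 3.32) and 0.67 (0.59 to 0.74). The sets overlapped in both libraries, and high spots labelled KPC-shZEB1 lay mostly above the other 3 sets. Cdk4, its close relative, was at 448 against 211 CPM and 551 against 428 CPM. Myc, a transcription factor of growth, had log2 ratios of 1.68 (1.57 to 1.79) and 0.079 (0.03 to 0.13), with high spot medians of 358 and 465 CPM and low spot medians of 58.9 and 479.7 CPM. Low spots labelled KPC-shV thus had nearly as much Myc per UMI as high spots. The D cyclins did not reach 2-fold, with Ccnd1 at log2 0.53 and 0.08. Of 8 genes compared, 4 were higher labelled KPC-shZEB1, beside 10.5% over all genes, and 1, Mycn, in both, beside 3.16%.

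Ribosome biogenesis genes, which make ribosomes in the nucleolus, were at least 2-fold higher for 11 of 11 genes labelled KPC-shZEB1 and for 1 of 11, Dkc1, labelled KPC-shV, beside 10.5% and 4.09% of all genes. Ncl, nucleolin, ranged from 691 to 2578 CPM with a median of 1512 CPM and from 629 to 2534 CPM with a median of 1462 CPM in high spots, with low spot medians of 467 and 927 CPM. Both libraries thus had similar high spots, while their low spots differed, and the sets overlapped. Summed log2 ratios of the list were 1.55 (1.52 to 1.58) and 0.50 (0.48 to 0.51). Purine, pyrimidine and one-carbon synthesis genes were higher for 12 and 2 of 15, beside the same shares, the latter Shmt1 (log2 2.07 and 1.79) and Mthfd1 (1.68 and 1.05), folate enzymes that supply thymidylate and purines. Nuclear genes of oxidative phosphorylation had summed log2 ratios of 0.64 and 0.45 and 1 and 0 of 17 genes past 2-fold, no more than over all genes.

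Brakes on the cycle did not move as 1 group. Cdkn1a, which encodes the inhibitor p21, was at 79.8 against 105 CPM labelled KPC-shZEB1 and at 81.6 against 379 CPM labelled KPC-shV, log2 ratios of -0.40 (-0.56 to -0.25) and -2.21 (-2.30 to -2.13). Its low spots labelled KPC-shV ranged from 18.7 to 1082 CPM with a median of 367 CPM, and its high spots from 0 to 417 CPM with a median of 72.4 CPM, with overlap. Cdkn2c, which encodes p18 of the INK4 family, went the other way, with log2 ratios of 1.20 (1.0 to 1.40) and 1.66 (1.46 to 1.85). Cdkn2a, which encodes p16 and p19ARF, had 2.25 (2.12 to 2.38) and 0.057 (0.0048 to 0.11). Btg2, an antiproliferative gene, was lower in both at -1.38 and -1.43. Of 13 genes compared, 2 were higher and 1 lower labelled KPC-shZEB1, near the 10.5% and 12.5% over all genes, and 2 were higher and 2 lower labelled KPC-shV, beside 4.09% and 4.87%.

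Hypoxia and glycolysis genes set the low spots of the libraries apart. All 13 hypoxia genes were at least 2-fold lower in high spots labelled KPC-shV, while 2 of 13, Adm and Ndrg1, were lower in those labelled KPC-shZEB1. Over all genes 4.87% and 12.5% were lower, so the count labelled KPC-shZEB1 was near the background. Vegfa, the angiogenic growth factor, ranged from 0 to 369 CPM with a median of 47.3 CPM in high spots labelled KPC-shV and from 0 to 1755 CPM with a median of 527 CPM in low spots. Labelled KPC-shZEB1 the medians were 25 and 19.6 CPM, while the pooled log2 ratio was -0.62. High and low spots overlapped in both libraries. Slc2a1, the glucose transporter GLUT1, had log2 ratios of -0.40 (-0.58 to -0.23) and -2.89 (-2.95 to -2.82), of which the first turned to 0.31 with a trimmed mean of spot CPM and to 0.36 without hypoxia-rich spots, and Adm, a vasodilator peptide, -2.57 (-3.21 to -1.98) and -3.11 (-3.36 to -2.87). Summed over the list the low spots labelled KPC-shV reached 5031 CPM against 1286 in high spots, and the low spots labelled KPC-shZEB1 1167 against 997 CPM. The summed log2 ratio of -0.23 labelled KPC-shZEB1 turned to 0.35 with a trimmed mean of spot CPM. None of the 260 high spots labelled KPC-shV was in the top 10% of its library for hypoxia genes (a 0 that allows up to 1.41% by the exact interval), against 128 of the low spots.

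Glycolysis and lactate export genes were lower by 2-fold for 7 of 10 labelled KPC-shV and 0 of 10 labelled KPC-shZEB1, beside 4.87% and 12.5% of all genes. Their summed log2 ratios were -1.01 (-1.03 to -1.0) and 0.70 (0.67 to 0.73), in the same order. Pkm, pyruvate kinase, stood at 1852 against 2846 CPM labelled KPC-shV and at 1520.1 against 739 CPM labelled KPC-shZEB1. Leaving out the 25% of spots richest in hypoxia genes before ranking, an alternative added after seeing the data, moved the summed ratios of the hypoxia list to 0.29 and -0.25 and of the glycolysis list to 1.15 and 0.17, while those of the G2/M regulators were 2.35 and 1.56 (labelled KPC-shZEB1 and KPC-shV, respectively).

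Markers of other cells moved with the ranking, mainly in the library labelled KPC-shZEB1. In bulk regions such as spots, fewer cells of a type and less RNA per cell cannot be told apart. Tumor epithelium genes summed to 5458 CPM in high and 3337 CPM in low spots labelled KPC-shZEB1, with 1 of 9 genes higher by 2-fold and 1 lower, near the 10.5% and 12.5% over all genes. Labelled KPC-shV they summed to 7324 and 8474 CPM, with 0 higher and 1, Cldn4, lower. Krt7 was the most abundant of them in each set, at 1953, 1111, 2762 and 3416 CPM in the same order. Low spots labelled KPC-shV thus had more epithelial RNA per UMI than high spots, and low spots labelled KPC-shZEB1 had less. The summed log2 ratio of -0.21 labelled KPC-shV turned to 0.35 without hypoxia-rich spots and to 0.35 when spots were ranked on the S phase lists.

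Fibroblast genes were lower in high spots by 2-fold for 6 of 10 labelled KPC-shZEB1 and 4 of 10 labelled KPC-shV, and the counts of this kind that follow stand beside 12.5% and 4.87% of all genes. They summed to 6327 against 19787 CPM and 3259 against 6534 CPM. Col3a1 was their most abundant gene in each set but the low spots labelled KPC-shV, where Col1a1 was. Col1a1, type I collagen, ranged from 73.5 to 9407 CPM with a median of 1443 CPM in high and from 75.5 to 25772 CPM with a median of 5729 CPM in low spots labelled KPC-shZEB1. Labelled KPC-shV the medians were 702 and 513 CPM, the reverse order of the pooled levels of 1078 and 2157 CPM, as the highest 10% of low spots there lay above 8577 CPM. Macrophage genes were lower for 6 and 3 of 8, and C1qa, a complement subunit and the most abundant of them, had log2 ratios of -1.38 (-1.43 to -1.32) and -0.50 (-0.55 to -0.44), of which the latter turned among epithelial spots, as given below. Endothelial genes were lower for 7 and 0 of 7, summing to 79.8 against 342 CPM and 122 against 159.9 CPM. Their summed log2 ratio of -0.39 labelled KPC-shV turned to 0.051 with a trimmed mean of spot CPM.

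Plasma cell genes had summed log2 ratios of -5.39 (-5.59 to -5.19) and -1.91 (-2.27 to -1.55), and their most abundant gene, Jchain, which joins secreted antibodies, was at 14.1 against 952 CPM and 1.98 against 10.8 CPM. B cell genes (Cd79b the most abundant in high spots, Fcer2a at 0 there in both libraries) summed to 11.3 against 184 CPM and 9.11 against 13.6 CPM. Islet genes summed to 6.71 against 806 CPM labelled KPC-shZEB1, and to 5.99 against 9.1 CPM labelled KPC-shV. The islet signal of low spots labelled KPC-shZEB1 was therefore not shared by any other set. T cell genes, of which Trac was the most abundant, summed to 85.6 against 249.6 CPM and 22.8 against 31.9 CPM. NK cell genes (Eomes the most abundant in high spots) summed to 9.12 against 20 and 4.79 against 6.35 CPM, and dendritic cell genes to 37.2 against 76.9 and 21.5 against 31.6 CPM. Several directions labelled KPC-shV depended on the alternative. T cell, B cell, NK cell and dendritic cell genes turned to log2 0.10, 0.23, 0.11 and 0.12 when ranked within 10 classes of depth. T cell genes turned to 0.25 without lymphoid-rich spots. NK cell and islet genes turned to 0.076 and 0.22 with a trimmed mean of spot CPM.

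Neutrophil genes were lower for 4 of 4 labelled KPC-shZEB1 and 5 of 5 labelled KPC-shV, beside 12.5% and 4.87% of all genes (summed log2 ratios of -1.18 (-1.32 to -1.03) and -1.78 (-1.84 to -1.73)). S100a8 was at 22.7 against 51.5 CPM labelled KPC-shZEB1 and 61.6 against 177 CPM labelled KPC-shV, and S100a9, its partner, at 21.4 against 46.4 CPM and 92 against 356 CPM. Neutrophil precursor genes rested on Ltf, lactoferrin, which gave 89.8% to 97.9% of their UMIs, with Camp at 0 in high spots labelled KPC-shZEB1. Ltf is also made by epithelia. Erythroid genes had summed log2 ratios of -3.46 and -1.37 and were led by Hbb-bs, and the latter turned to 0.36 when ranked within 10 classes of depth. Hemoglobin genes have near-identical copies and are uncertain one by one.

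The part of these other cells in the high over low ratios was not tested. Other rankings change which spots are compared and how many, so they describe how the ratios move without giving the cause. Without lymphoid-rich spots, 429 and 392 genes were higher and 710 and 355 lower (labelled KPC-shZEB1 and KPC-shV), with 121 and 108 cell cycle genes higher, and tumor epithelium genes labelled KPC-shZEB1 turned to a summed log2 ratio of -0.33. In a further ranking, only eligible spots at or above their library's median level of the tumor epithelium list were used, an alternative added after seeing the data. Of the cell cycle genes, 116 and 116 were then at least 2-fold higher in high spots (labelled KPC-shZEB1 and KPC-shV) and 104 in both, against 130, 112 and 112. Over all genes the number higher labelled KPC-shZEB1 was 457 in place of 1106 and labelled KPC-shV 732 in place of 407, and fibroblast genes turned to summed log2 ratios of 0.14 and 1.01. B cell, plasma cell, NK cell, dendritic cell and islet genes turned higher labelled KPC-shZEB1 in the same spots, at log2 0.68, 0.78, 0.51, 0.028 and 0.32. Labelled KPC-shV, macrophage, endothelial and T cell genes turned higher, at log2 0.70, 0.90 and 0.88, with C1qa at 1.13. NK cell, dendritic cell, islet and neutrophil precursor genes also turned higher there, at log2 0.42, 0.11, 0.15 and 0.085.

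**Figure D4:**
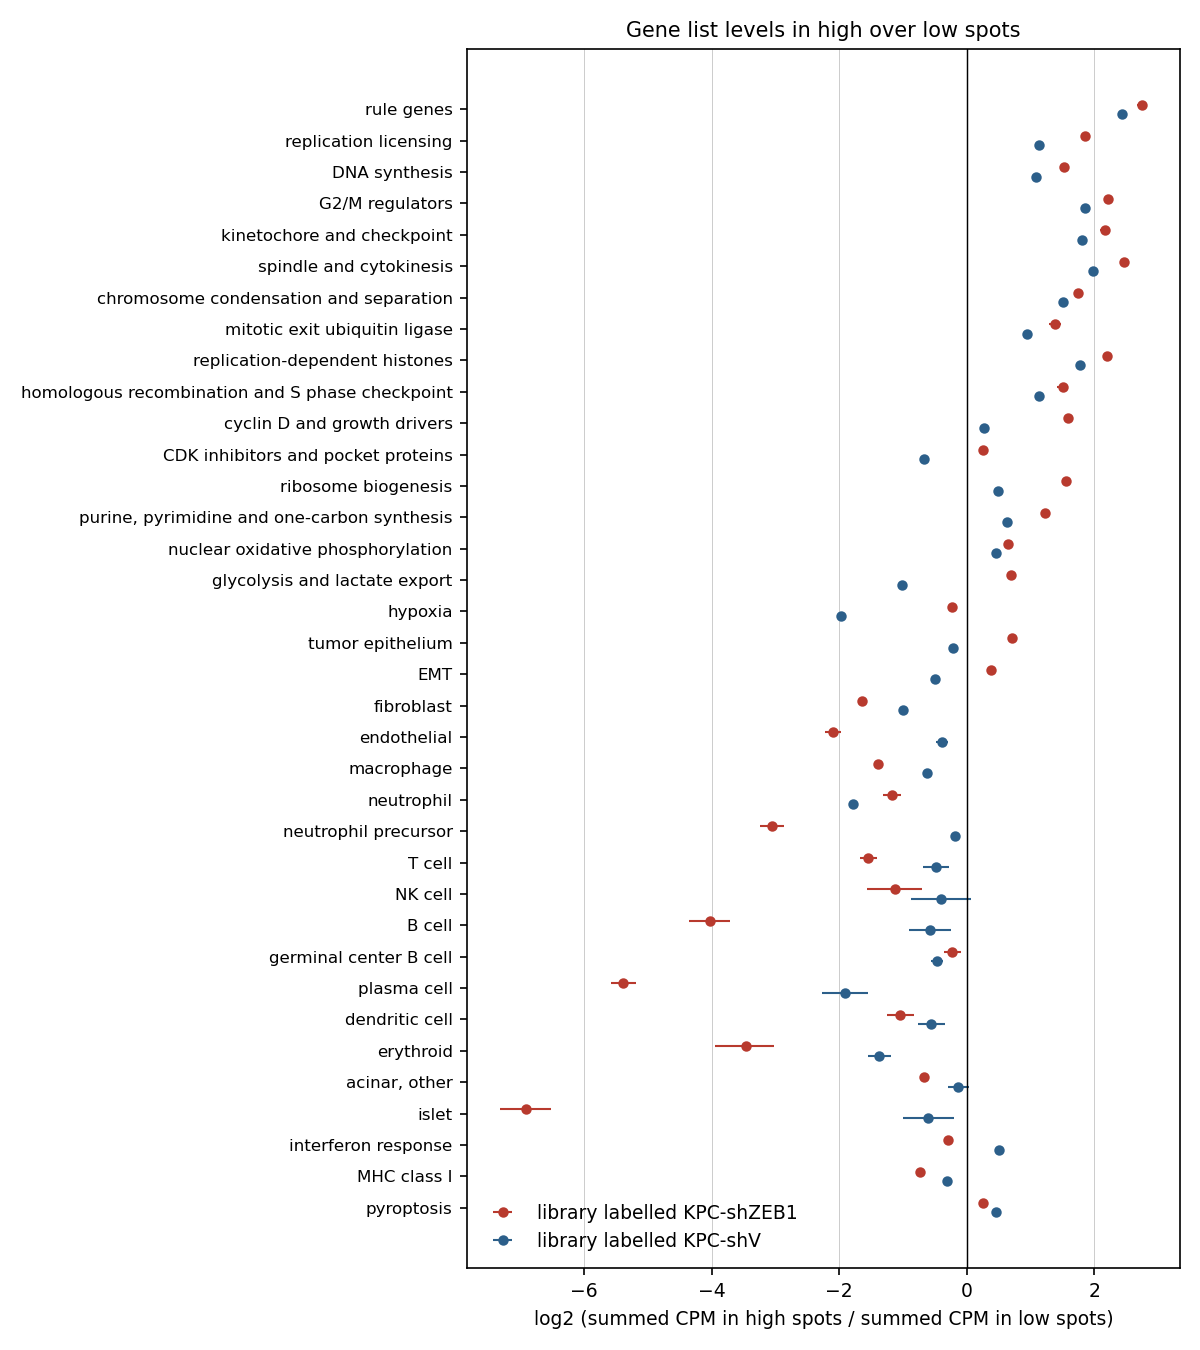
Log2 ratio of summed CPM in high over low spots for the gene lists shown in each library, with exact conditional binomial 95% intervals that cover counting error only. Cell cycle lists lie to the right of 0 in both libraries, while hypoxia lies furthest left in the library labelled KPC-shV and islet and plasma cell genes in the library labelled KPC-shZEB1.

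Genes that the study followed were read in the same spots, together with interferon response and EMT lists chosen here. Interferon response genes had summed log2 ratios of -0.29 (-0.32 to -0.26) and 0.51 (0.48 to 0.53), with 2 of 9 lower by 2-fold labelled KPC-shZEB1 (Ifit1 and Ifit3), near the 12.5% over all genes, and 0 of 9 past 2-fold labelled KPC-shV. Cxcl9, a T cell chemokine and the most abundant of them in high spots labelled KPC-shZEB1, had pooled log2 ratios of 0.39 (0.33 to 0.46) and 0.63 (0.56 to 0.70). Its medians labelled KPC-shZEB1 ran the other way, at 130.4 CPM in high and 197 CPM in low spots, while those labelled KPC-shV were 150.3 and 42.1 CPM. The pooled direction turned against all other eligible spots, to -0.78 and -0.10. MHC class I genes had -0.74 (-0.76 to -0.72) and -0.32 (-0.33 to -0.31), led by B2m. Pyroptosis genes had summed log2 ratios of 0.25 and 0.45. Among them Gsdmd, a pore-forming gasdermin, was at 257 against 292 CPM and 182 against 133 CPM. Of the pyroptosis genes labelled KPC-shZEB1, 1 of 9 was higher by 2-fold and 2 lower, beside 10.5% and 12.5% of all genes. Labelled KPC-shV, 3 of 8 were higher and 0 lower, beside 4.09% and 4.87%. The summed ratio labelled KPC-shZEB1 turned without lymphoid-rich spots, against all other eligible spots and among epithelial spots, to -0.061, -0.13 and -0.091. Cxcl16, a chemokine, was lower in both libraries by less than 2-fold, with log2 ratios of -0.21 (-0.29 to -0.14) and -0.40 (-0.45 to -0.35). Cd274, which encodes PD-L1, was lower in both at -1.06 and -1.56. Spp1, osteopontin, had 1.13 and 0.22, a direction that turned labelled KPC-shZEB1 against all other eligible spots, without lymphoid-rich spots and among epithelial spots. EMT genes summed to log2 ratios of 0.38 and -0.50, mostly through Vim and Fn1, which stromal cells also express.

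Most genes that handle gemcitabine, a nucleoside analog, did not reach 2-fold higher in high spots, unlike most genes of the cell cycle lists. Of 8 compared, 2 were higher by 2-fold labelled KPC-shZEB1 and 0 labelled KPC-shV, beside 10.5% and 4.09% over all genes. Slc29a1, the nucleoside transporter ENT1, was at 61.3 against 38.2 CPM and 52.4 against 27.7 CPM (log2 0.68 (0.46 to 0.91) and 0.92 (0.73 to 1.11)). Dck, the kinase that activates the drug, was at log2 0.23 (-0.094 to 0.56) and 0.00026 (-0.21 to 0.21), intervals that include 0. Rrm1, its target in ribonucleotide reductase and a member of the DNA synthesis list, had 1.33 (1.16 to 1.5) and 1.16 (1.03 to 1.29).

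High spots of the 2 libraries were then set against each other. Among 9895 genes, 302 (3.05%) were at least 2-fold higher in high spots labelled KPC-shZEB1 and 218 (2.2%) lower. Between low spots, 1349 (12.9%) of 10475 were higher and 998 (9.53%) lower. Of 139 cell cycle genes 0 were higher and 1, Dbf4, was lower in high spots labelled KPC-shZEB1 (log2 -1.19 (95% interval -1.24 to -1.14)). With a trimmed mean of spot CPM, or ranked within 10 classes of depth, 0 were lower. The ratio of Dbf4 kept its direction and ranged from -1.71 to -0.94 over the alternatives. The median log2 ratio of the cell cycle genes was -0.001, beside -0.042 over all genes. In low spots 12 of 109 were lower, near the 9.53% over all genes. Their median there was -0.44, beside -0.16 over all genes. The rule ranks within libraries and chose nearly equal sums, so equal levels of genes that go with the rule genes are in part built in. G2/M regulators summed to 1432 and 1472 CPM, a log2 ratio of -0.039 (-0.071 to -0.0075), and DNA synthesis genes to 2121 and 1935 CPM, 0.13 (0.11 to 0.16). Among cell cycle lists replication licensing lay furthest from 0, at 2400 and 2911 CPM, a log2 ratio of -0.28 (-0.30 to -0.25). Dbf4, its most abundant gene, had the log2 ratio of -1.19 given above. The list's ratio therefore leans on this 1 gene, and the list without it was not read.

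**Figure D5:**
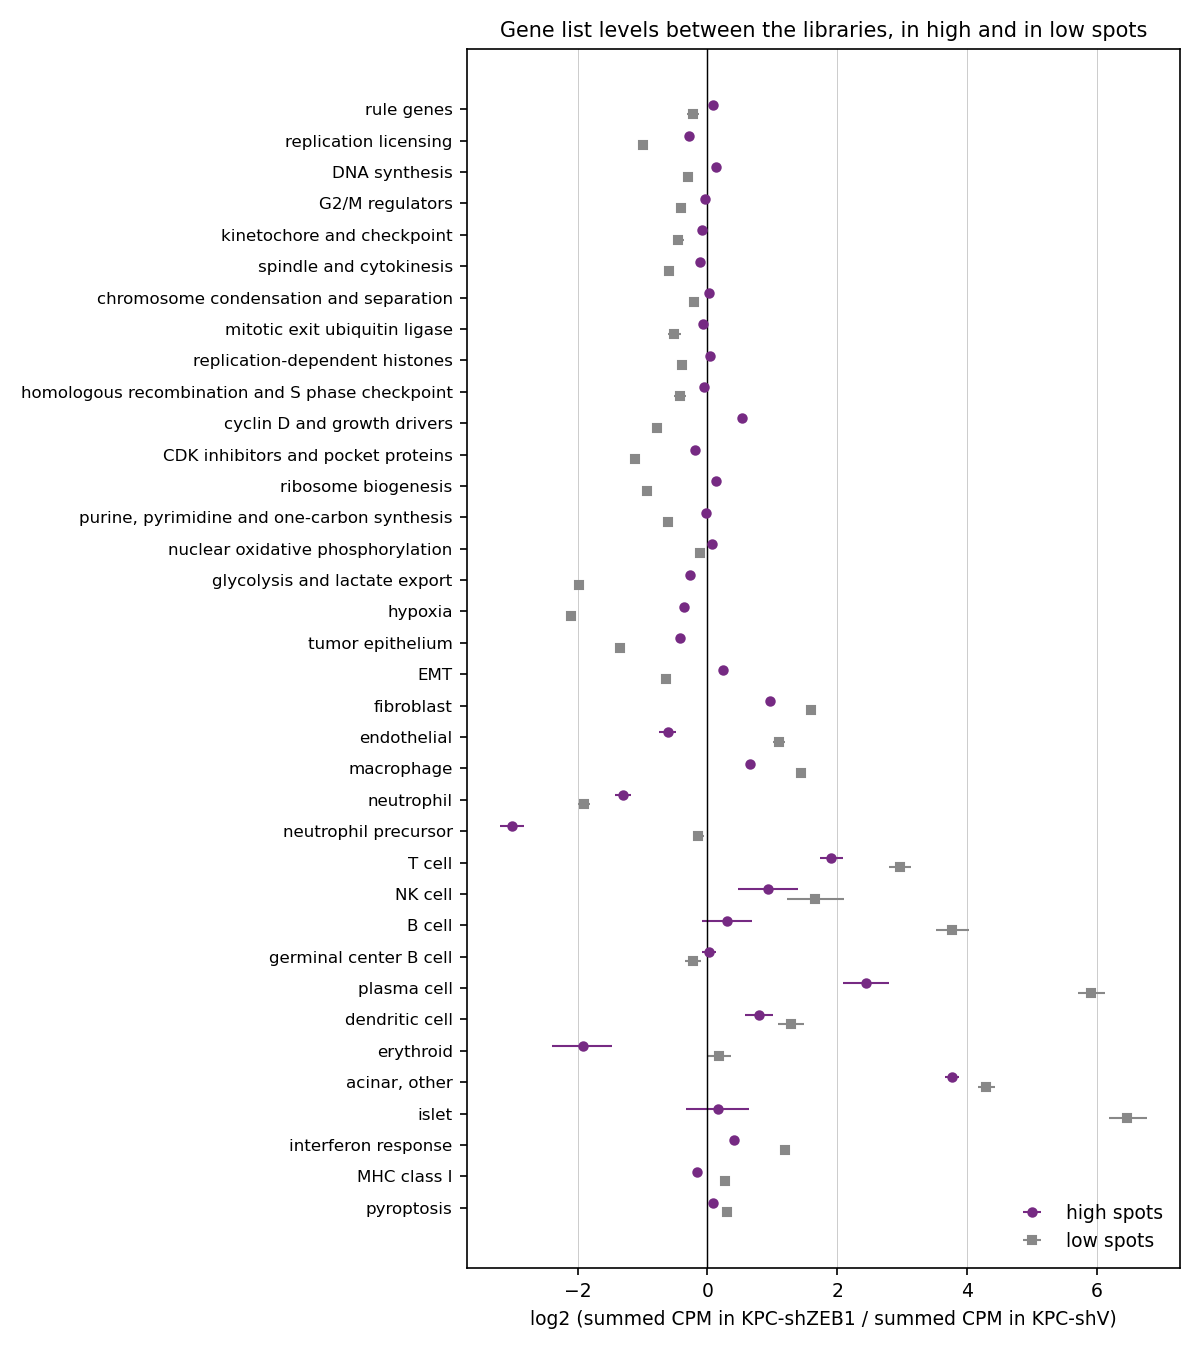
Log2 ratio of the library labelled KPC-shZEB1 over the library labelled KPC-shV for gene lists in high spots and in low spots, with exact conditional binomial 95% intervals that cover counting error only. Cell cycle lists lie closer to 0 in high spots than in low spots, where they lie left of 0, and acinar genes lie furthest right in high spots.

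The largest differences between high spots were not in the cycle. The 8 genes highest in those labelled KPC-shZEB1 are acinar digestive genes or trypsinogens (Try4, Cela2a, Pnlip, Clps, Cela3b, Sycn, 2210010C04Rik and Ctrl), from a log2 ratio of 4.04 for Ctrl to 4.77 for Try4. Cela2a and Pnlip belong to the rule's acinar genes. The median share of the 5 rule acinar genes was 0.0769% of UMIs in high spots labelled KPC-shZEB1 and 0.00633% in those labelled KPC-shV, and the sections differed in normal pancreas, as 825 and 214 deep spots were left out for acinar UMIs. T cell genes had a summed log2 ratio of 1.91 (1.73 to 2.09) between high spots and 2.97 (2.80 to 3.14) between low spots. Of the genes compared, 4 of 4 and 7 of 7 were past 2-fold. All were compared through the library labelled KPC-shZEB1 alone, as Trac, the most abundant, was at 6.61 and 8.53 CPM labelled KPC-shV. The 10 CPM filter thus set their direction, and these counts add nothing to the summed ratios. Between high spots, fibroblast genes had a summed log2 ratio of 0.96, macrophage genes 0.66, neutrophil genes -1.30 and endothelial genes -0.61. Cdk6 was the growth driver past 2-fold, at 2.12 (95% interval 2.07 to 2.16).

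Those lowest in high spots labelled KPC-shZEB1 were Serpina1b, Peg3, Igf2, Ppp2r2c, Atp2c2, Ltf, Tmprss6 and Cldn7. Cldn7, a tight junction claudin, ranged from 0 to 740.3 CPM with a median of 42.4 CPM labelled KPC-shZEB1 and from 0 to 1907 CPM with a median of 788 CPM labelled KPC-shV, a pooled log2 ratio of -2.98 (-3.09 to -2.87) that was -1.10 in low spots. Serpina1b, an antitrypsin gene with close copies, was at 0 in 202 of 260 high spots labelled KPC-shV and reached 344 CPM. Peg3 and Igf2, imprinted genes of growth, were at 0 in 164 and 168 of those 260 spots and reached 724 and 624 CPM. Their log2 ratios of -3.74 and -3.67 thus rest on a minority of spots labelled KPC-shV.

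Genes lower in both libraries' high spots by size were Igha, Prelp, Abi3bp, Saa3, Clec4a1, Serpina3n, Adm, Sfrp1, Igkc, G0s2, Hp and Dusp1. Igkc, the antibody kappa chain, was at 696 against 51681 CPM and 119.9 against 640.4 CPM. Of its UMIs in high spots, 70.2% and 71.2% came from 5 spots. Prelp and Abi3bp, of the extracellular matrix, had log2 ratios of -3.71 and -2.93, and -4.19 and -2.89. Saa3, Serpina3n and Hp are acute phase genes, with Saa3 at -4.73 and -2.75. Dusp1, a stress-induced phosphatase, had -2.19 and -2.82, and Sfrp1, a Wnt antagonist, -3.99 and -2.42. Among spots at or above the median epithelial level, Prelp, Abi3bp, Saa3, Sfrp1 and Igkc were higher in high spots labelled KPC-shV and Igha and Clec4a1 in those labelled KPC-shZEB1, so their direction there depends on which spots are ranked. Igha labelled KPC-shV turned to 0.16 when ranked within 10 classes of depth. Those higher in both beyond the genes given above were Kif14 and Fam83d of the spindle, at 2.49 and 2.36 and at 2.59 and 2.29, and Pclaf, a partner of the sliding clamp, at 2.26 and 2.34.

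Among genes with at least 20 CPM in the higher set of each library, the high over low ratios of the libraries differed most for Rhox5, Acan, Klhl1, Mcpt8, Areg and Col7a1, larger labelled KPC-shZEB1, and for Ttr, Tff2, Igkc, Ccn5, Slpi and Ly6d, smaller there. Rhox5, a homeobox gene of the X chromosome, had a median of 479 CPM and was at 0 in 32 of 132 high spots labelled KPC-shZEB1. It was at 0 in 102 low spots there, and in 136 high and 189 low spots labelled KPC-shV. The log2 ratios were 4.92 (4.64 to 5.22) and 1.81 (1.64 to 1.99), and 72.5% of its UMIs in low spots labelled KPC-shZEB1 came from 5 spots. The ratio labelled KPC-shV turned to -1.66 when spots were ranked on the S phase lists and to -0.43 against all other eligible spots. Mcpt8, a basophil protease, had 3.44 and 0.0039, Areg, an epidermal growth factor receptor ligand, 1.76 and -1.41, and Acan, a cartilage proteoglycan, 2.49 and -1.15. Tff2 and Slpi, secreted products of mucosal epithelia, had -5.68 and -1.37 and -5.14 and -1.54. Their ratios labelled KPC-shV turned to 0.13 for Tff2 with a trimmed mean of spot CPM and to 0.18 for Slpi when ranked within 10 classes of depth. These differences were not tested, since each library is 1 section.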

How the data were processed

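Spatial gene expression was measured with probe-based Visium CytAssist libraries of OCT-frozen, methanol-fixed sections. The authors mapped reads to mm10 with Space Ranger 2.0.1 and deposited UMI counts for 19465 probe-targeted genes per spot, not normalised, in all 140493626 UMIs (KPC-shZEB1) and 172059528 UMIs (KPC-shV). The deposited counts of a spot set were summed per gene and divided by the set's UMIs (CPM). Symbols that repeat (11) were kept as separate features. A gene was compared with at least 10 CPM in the higher set and called at 2-fold or more. Because each group is 1 library, no test was run. Intervals of levels and ratios (exact conditional binomial or exact Poisson, 95%) cover counting error only. Clopper-Pearson intervals (95%) of shares of spots take spots as independent draws and cover no spread between tumors. Doublet calling does not apply to spots.

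The members, the 41 gene lists and the rules for named genes were chosen with earlier results of these data known. Named genes were those of the lists and, by size, with at least 20 CPM in the higher set, the 12 highest and 12 lowest in both libraries, the 8 highest and 8 lowest between high spots, and the 6 highest and 6 lowest differences between the libraries' ratios. Positions are from GENCODE M21 on GRCm38 and promoter windows from RefSeq (GRCm38.p6). Alternatives changed the ranking, the spots kept, scaling, pooling, fold and filter. Scripts, tested on simulated data, used Python 3.11.15, numpy 2.4.6, scipy 1.17.1, pandas 2.3.3 and matplotlib 3.10.9. Genes of the lists that the tables do not name, such as Rrm2, Ccnb1 and Cdc20, were not analysed here, and some items are not reported here.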

Additional observations from a re-analysis of the deposited data

Results flagged for a closer look

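Gene lists, and genes named in the text, whose ratios of high over low spots ran in opposite directions in the libraries with both counting intervals away from 0 are given here as log2 differences, labelled KPC-shZEB1 minus KPC-shV, with both ratios in that order. None of these differences was tested, since each group is 1 library. Among gene lists the difference was 0.93 (log2 0.26 and -0.67) for CDK inhibitors and pocket proteins, 1.71 (log2 0.70 and -1.01) for glycolysis and lactate export, 0.92 (log2 0.71 and -0.21) for tumor epithelium, 0.89 (log2 0.38 and -0.50) for EMT and -0.80 (log2 -0.29 and 0.51) for interferon response genes. The low spots labelled KPC-shV held the higher level of the first 4 lists among the low sets. Among single genes it was -6.14 (log2 -2.65 and 3.49) for Peg3, -4.51 (log2 -1.45 and 3.06) for Igf2, -1.87 (log2 -1.75 and 0.12) for Cldn7 and -4.84 (log2 -1.69 and 3.15) for Ttr, which encodes transthyretin. It was 3.64 (log2 2.49 and -1.15) for Acan, 3.18 (log2 1.76 and -1.41) for Areg and 3.12 (log2 2.01 and -1.10) for Col7a1, which encodes anchoring fibril collagen. For Zeb1, the targeted gene, it was -0.73 (log2 -0.37 and 0.35), at 19.7 CPM in low spots labelled KPC-shZEB1 and 10.4 CPM in those labelled KPC-shV. It was 1.66 (log2 1.04 and -0.62) for Pkm, 1.12 (log2 0.81 and -0.31) for Krt7, 1.31 (log2 1.11 and -0.21) for Krt8, 0.996 (log2 0.18 and -0.82) for Fn1, -2.19 (log2 -1.95 and 0.24) for Ifit1 and -0.65 (log2 -0.19 and 0.46) for Gsdmd. Several of these directions depend on the spots ranked. Among spots at or above the median epithelial level, the ratio labelled KPC-shZEB1 was -0.28 for CDK inhibitors and pocket proteins, -0.23 for glycolysis and lactate export, -0.47 for tumor epithelium and -0.25 for EMT, and without hypoxia-rich spots that labelled KPC-shV was -0.23 for interferon response genes, so that the libraries then ran the same way. For Zeb1 the ratio labelled KPC-shV turned to -0.47 without hypoxia-rich spots and to -0.99 when spots were ranked on the S phase lists, and that labelled KPC-shZEB1 to 0.012 without lymphoid-rich spots, so its opposite directions did not hold there. Ttr turned labelled KPC-shZEB1 to 0.67 against all other eligible spots and to 1.46 among epithelial spots, and labelled KPC-shV to -1.69 when ranked on the S phase lists. Pkm and Krt8 labelled KPC-shZEB1 turned among epithelial spots to -0.019 and -0.28. Labelled KPC-shV they turned without hypoxia-rich spots to 0.33 and 0.43, and Pkm turned to 0.057 when ranked on the S phase lists.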

How the results depend on the processing

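Cell cycle lists kept summed log2 ratios above 0 in high over low spots of both libraries under each alternative run. For the licensing and DNA synthesis lists this was fixed in advance where spots were ranked on them (the S phase lists). Counts of genes past 2-fold moved by more than 1.5 times in the cases below, and the cause was not tested where the alternative's construction (fewer spots, another fold or filter) does not give it. Those in 1 library are high over low spots, and those between high spots are labelled KPC-shZEB1 over KPC-shV. With the top and lowest 5%, the counts were 639 higher labelled KPC-shV, 1 cell cycle gene lower labelled KPC-shV. With the top and lowest 20%, the counts were 398 higher labelled KPC-shZEB1, 728 lower labelled KPC-shZEB1, 229 higher labelled KPC-shV, 312 lower labelled KPC-shV, 180 higher in both libraries, 125 lower in both libraries. With at least 30000 UMIs per spot, the counts were 141 lower in both libraries. Ranked on the S phase lists, the counts were 1385 lower labelled KPC-shV, 576 higher between high spots, 385 lower between high spots, 852 lower in both libraries. With a trimmed mean of spot CPM, the counts were 738 higher labelled KPC-shV, 0 cell cycle genes lower between high spots, 113 lower in both libraries. Without lymphoid-rich spots, the counts were 429 higher labelled KPC-shZEB1, 710 lower labelled KPC-shZEB1, 89 lower in both libraries. Against all other eligible spots, the counts were 52 higher labelled KPC-shZEB1, 217 lower labelled KPC-shZEB1, 4 cell cycle genes higher labelled KPC-shZEB1, 42 higher labelled KPC-shV, 115 lower labelled KPC-shV, 2 cell cycle genes higher labelled KPC-shV, 2 higher in both libraries, 31 lower in both libraries, 1 cell cycle gene higher in both libraries. At 1.5-fold, the counts were 2659 higher labelled KPC-shZEB1, 2060 lower labelled KPC-shZEB1, 1268 higher labelled KPC-shV, 1248 lower labelled KPC-shV, 1 cell cycle gene lower labelled KPC-shV, 778 higher between high spots, 672 lower between high spots, 2 cell cycle genes higher between high spots, 5 cell cycle genes lower between high spots, 876 higher in both libraries, 628 lower in both libraries. With at least 50 CPM, the counts were 673 higher labelled KPC-shZEB1, 528 lower labelled KPC-shZEB1, 81 cell cycle genes higher labelled KPC-shZEB1, 176 higher labelled KPC-shV, 222 lower labelled KPC-shV, 67 cell cycle genes higher labelled KPC-shV, 105 higher between high spots, 82 lower between high spots, 143 higher in both libraries, 66 lower in both libraries, 64 cell cycle genes higher in both libraries. With no filter on low genes, the counts were 1780 higher labelled KPC-shZEB1, 3217 lower labelled KPC-shZEB1, 687 higher labelled KPC-shV, 2225 lower labelled KPC-shV, 1 cell cycle gene lower labelled KPC-shV, 1752 higher between high spots, 755 lower between high spots, 1 cell cycle gene higher between high spots, 802 lower in both libraries. Among spots at or above the median epithelial level, the counts were 457 higher labelled KPC-shZEB1, 375 lower labelled KPC-shZEB1, 732 higher labelled KPC-shV, 1 cell cycle gene lower labelled KPC-shV, 86 lower in both libraries. Without hypoxia-rich spots, the counts were 968 lower labelled KPC-shV, 719 lower in both libraries. Ranked within 10 classes of depth, the counts were 689 higher labelled KPC-shZEB1, 247 higher labelled KPC-shV, 144 lower labelled KPC-shV, 187 higher between high spots, 0 cell cycle genes lower between high spots, 199 higher in both libraries, 38 lower in both libraries. Ratios of high over low spots of 2-fold or more turned direction ranked on the S phase lists to -1.66 for Rhox5 (KPC-shV), -1.69 for Ttr (KPC-shV). They turned with a trimmed mean of spot CPM to 0.13 for Tff2 (KPC-shV). They turned without lymphoid-rich spots to -0.0096 for Spp1 (KPC-shZEB1). They turned against all other eligible spots to 0.67 for Ttr (KPC-shZEB1), -0.032 for Spp1 (KPC-shZEB1), -0.036 for Krt8 (KPC-shZEB1), -0.43 for Rhox5 (KPC-shV). They turned among spots at or above the median epithelial level to 0.14 for fibroblast (KPC-shZEB1), 0.51 for NK cell (KPC-shZEB1), 0.68 for B cell (KPC-shZEB1), 0.78 for plasma cell (KPC-shZEB1), 0.028 for dendritic cell (KPC-shZEB1), 0.32 for islet (KPC-shZEB1), 1.02 for Igha (KPC-shZEB1), 0.24 for Clec4a1 (KPC-shZEB1), 1.46 for Ttr (KPC-shZEB1), -0.40 for Spp1 (KPC-shZEB1), -0.019 for Pkm (KPC-shZEB1), -0.28 for Krt8 (KPC-shZEB1), 0.16 for Col1a1 (KPC-shZEB1), 0.81 for Jchain (KPC-shZEB1), 1.01 for fibroblast (KPC-shV), 0.12 for Prelp (KPC-shV), 0.41 for Abi3bp (KPC-shV), 0.98 for Saa3 (KPC-shV), 1.29 for Sfrp1 (KPC-shV), 2.78 for Igkc (KPC-shV), 0.96 for Col1a1 (KPC-shV), 0.40 for Jchain (KPC-shV). They turned without hypoxia-rich spots to 0.17 for glycolysis and lactate export (KPC-shV). They turned ranked within 10 classes of depth to 0.36 for erythroid (KPC-shV), 0.16 for Igha (KPC-shV), 0.18 for Slpi (KPC-shV). Of 82 ratios under 2-fold, 52 changed direction in at least 1 alternative. Scaled by the median of ratios, 815 genes were higher and 1507 lower labelled KPC-shZEB1, in place of 1106 and 1314. The epithelial, hypoxia and depth alternatives were chosen after seeing the data. No paired analysis was possible because each group is 1 library, and for the same reason no replicate could be left out. Depth limits genes read near the 10 CPM filter, whose counting intervals are wide.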
